A study of Mus musculus with 13 samples.

Results

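The genes described here are 10 markers and transcription factors of hair follicle stem cells, Lgr5, Lgr6, Lrig1, Cd34, Sox9, Lhx2, Tbx1, Tcf7l1, Nfatc1 and Foxc1, taken by symbol from a table of 21100 mouse genes. They were followed in 13 tumors of a study that set a transplantable mouse model of basal cell carcinoma (BCC) beside the engineered model it came from, to characterize how alike the models are. Each tumor gave 1 library of poly(A) RNA, and the values are RSEM expected counts per gene. All 10 genes had a value in every tumor and at least 10 counts in at least 4 tumors, and so were among the 14390 genes tested.

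The 9 GEM-BCC tumors (GEM1 to GEM9) grew in the skin, intradermally, of 7 female Ptch1+/- K14-CreERT2 p53fl/fl mice, in which the keratin 14 promoter drives a tamoxifen-dependent Cre in basal keratinocytes. These mice had received 3 intraperitoneal injections of 300 µg tamoxifen and 1 X-ray dose of 4 Gy. GEM2 and GEM3 came from mouse 2, and GEM7 and GEM8 from mouse 6. The 4 Tp-BCC tumors (TP1 to TP4) grew under the skin of the right flank in 4 female Ptch1+/- p53fl/fl hosts, immunocompetent and without Cre, after inoculation of 2000000 tumor cells each. All Tp-BCC tumors descend from 1 GEM-BCC tumor, so the 4 hosts carry the same line and are not 4 tumors of separate origin. Germline loss of 1 Ptch1 copy and the floxed p53 alleles are shared by donors and hosts, and the labels give no ages. Every GEM-BCC library belongs to batch 1 and every Tp-BCC library to batch 2, and the models also differ in site of growth, so model, batch and site cannot be told apart.

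Hair follicles renew in cycles from stem cells housed in the bulge, a niche of the outer root sheath, and from the hair germ beneath it, while other pools sit in the isthmus and junctional zone above. Bulge cells stay quiescent for long periods under Bmp signals and enter the cycle when Wnt signals, heightened by R-spondins through Lgr receptors, prevail. BCC is a tumor of skin epithelium driven by Hedgehog signaling, and mouse BCCs can arise from follicle stem cells as well as from interfollicular epidermis.

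Total expected counts ran from 28075317 to 32629102 in GEM-BCC libraries and from 15388027 to 17494912 in Tp-BCC libraries. Levels are given as CPM, counts per 1000000 of the library total after scaling by the TMM method, and log2 CPM carries a prior count of 2. Some libraries stood apart in how their counts followed the GC content and the length of genes. Across genes, which are not independent replicates, the Spearman correlation between GC content and the deviation of log2 CPM from its mean over tumors was 0.594 in TP2 and 0.589 in TP4, against -0.389 in TP1 and -0.473 in TP3. GEM1 read 0.365, while the other GEM-BCC tumors lay between -0.31 and -0.15. The same correlation with the length of the longest transcript was -0.413 in GEM3 and -0.171 in GEM6, against -0.00848 to 0.383 in the other GEM-BCC tumors, and 0.196, -0.144, 0.243 and -0.331 in TP1 to TP4. Both trends thus split TP1 and TP3 from TP2 and TP4, and only the GC trend was removed in an alternative. The 10 genes had a median GC content of 54.9%, against 51.3% for all genes tested, with Tbx1 highest at 66.1% and Cd34 lowest at 49.1%.

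The label of the tissue was checked against Krt5, Krt14, Krt17 and Trp63, genes of basal and follicular keratinocytes, and Gli1 and Ptch1, targets of Hedgehog signaling. Each of these 6 genes had at least 854 counts in each of the 13 tumors. Krt5 read 4680 to 10692 CPM in GEM-BCC and 4261, 8167, 3726 and 10347 CPM in TP1 to TP4. Krt14 read 1330 to 4378 CPM in GEM-BCC and 1053, 2035, 918 and 2803 CPM in TP1 to TP4. These keratins overlapped between the models, Krt5 and Krt14 falling below the GEM-BCC range in TP1 and TP3. Krt17 read 1792 to 3529 CPM in GEM-BCC and 2507, 4711, 2495 and 6444 CPM in TP1 to TP4, with TP2 and TP4 above the range. Trp63 read 312 to 836 CPM in GEM-BCC and 422, 271, 443 and 116 CPM in TP1 to TP4, and Ptch1 158 to 462 against 176, 166, 187 and 61.0 CPM. Trp63 thus lay below the GEM-BCC range in TP2 and TP4, and Ptch1 in TP4. Gli1 read 376 to 804 CPM in GEM-BCC and 674, 840.0, 677 and 965 CPM in TP1 to TP4. None of the 6 had an adjusted p under 0.05 between the models, Ptch1 coming nearest at 0.0809, and the markers of the labelled tissue were present in all 13 tumors.

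Promoter sequence was at hand for 7 of the 10 genes, and windows for Lgr5, Sox9 and Nfatc1 were missing. The 4 shown are of genes that had an extreme in GEM2: Lrig1, Lhx2 and Foxc1 were all highest in GEM2 and lowest in GEM3, a tumor of the same mouse, while Cd34 was lowest in GEM2. Over the 9 GEM-BCC tumors not all of the 4 moved together, Lrig1 and Foxc1 having an r of 0.373 and, over mouse means, -0.35. Each window holds 250 bases before the transcription start and 50 after it, from RefSeq on build GRCm38.p6, written 5′ to 3′ along the gene's strand. Lrig1 lies on the minus strand at chr6:94700096-94700395, Cd34 on the plus strand at chr1:194938571-194938870, Lhx2 on the plus strand at chr2:38339031-38339330 and Foxc1 on the plus strand at chr13:31806396-31806695. Capitals mark matches, on either strand, to any of 8 short motifs.
Lrig1: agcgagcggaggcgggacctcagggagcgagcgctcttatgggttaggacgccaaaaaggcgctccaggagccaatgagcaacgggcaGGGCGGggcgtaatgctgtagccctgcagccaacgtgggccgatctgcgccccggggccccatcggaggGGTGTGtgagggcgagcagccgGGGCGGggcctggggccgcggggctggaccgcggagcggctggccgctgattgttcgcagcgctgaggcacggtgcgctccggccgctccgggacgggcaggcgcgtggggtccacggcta
Cd34: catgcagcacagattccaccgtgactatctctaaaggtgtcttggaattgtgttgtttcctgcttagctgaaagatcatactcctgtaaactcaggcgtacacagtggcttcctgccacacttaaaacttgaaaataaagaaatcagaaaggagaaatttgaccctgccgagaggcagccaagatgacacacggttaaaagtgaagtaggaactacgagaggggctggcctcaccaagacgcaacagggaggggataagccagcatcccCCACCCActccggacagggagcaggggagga
Lhx2: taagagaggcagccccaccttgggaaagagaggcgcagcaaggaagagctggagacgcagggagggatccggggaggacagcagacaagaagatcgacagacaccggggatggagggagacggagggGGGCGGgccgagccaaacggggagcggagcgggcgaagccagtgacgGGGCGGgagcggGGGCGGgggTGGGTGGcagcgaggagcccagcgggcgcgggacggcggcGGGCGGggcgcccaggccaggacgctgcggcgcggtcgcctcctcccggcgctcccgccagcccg
Foxc1: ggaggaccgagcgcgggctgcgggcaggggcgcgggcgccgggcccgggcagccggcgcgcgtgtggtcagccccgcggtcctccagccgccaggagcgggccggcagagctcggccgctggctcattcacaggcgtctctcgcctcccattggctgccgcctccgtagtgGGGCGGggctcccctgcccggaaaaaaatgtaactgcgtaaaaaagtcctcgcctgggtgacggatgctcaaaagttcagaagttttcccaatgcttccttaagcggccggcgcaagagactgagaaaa
The motifs, counted on both strands, were CTTTGA for Tcf and Lef factors (in 16% of all 32851 windows), ACAATG for Sox factors (12.6%), TAATTA for LIM homeobox factors (5.29%) and GGTGTG for T-box factors (19%). The others were TGTTTA for forkhead factors (13.4%), TGGAAA for NFAT (21.4%), CCACCCA for Gli (9.3%) and the GC box GGGCGG (35.7%). No marked match overlapped another. Lrig1 held 1 T-box match, 93 bases before the start, and 2 GC boxes. The Lhx2 window shown held 4 GC boxes and 1 Gli match 55 bases before the start, Foxc1 held 1 GC box 79 bases before the start, and Cd34 held 1 Gli match just after its start and no GC box. A further Lhx2 window, on the plus strand at chr2:38351058-38351357 and 69.3% GC, held 1 T-box match and neither a GC box nor a Gli match. The windows shown of Lrig1, Lhx2 and Foxc1 were 73%, 74.7% and 67.3% GC, that of Cd34 was 50%, and the median over all windows was 52.7%. A match is only a run of letters and says nothing of binding.

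Of the 10 genes, 1 passed at an adjusted p under 0.05 in edgeR's quasi-likelihood test of Tp-BCC against GEM-BCC, where 2792 of 14390 genes, or 19.4%, passed. That gene, Lgr5, was lower in Tp-BCC, a direction taken by 1201 genes or 8.35%. The number of lower genes depended on the fit. It was 1860 of the 3743 that passed by DESeq2 and 2029 of 4178 by limma with the GC trend removed. With TP2 and TP4 as the only Tp-BCC tumors it was 3398 of 6119, where lower genes outnumbered higher ones. The edgeR count of 1 became 2 when GEM1, GEM8 or TP3 was left out, through Tcf7l1, or GEM3, through Foxc1, and that of all genes fell to 1545 without TP2 and 1836 without TP4. None of the 10 passed as higher, where 11.1% of all genes did. In this main fit none met the stricter call that adds an absolute log2 fold change above 2, which 5.57% of all genes met, though Foxc1 met it by DESeq2, with counts summed per mouse and without GEM3, and Lgr5 with TP2 and TP4 only. Again 1 of the 10, Lgr5, had values that did not overlap between the models, against 9.95% of all genes. With both directions pooled, 1 of 10 stood beside 19.4% of all genes in the main fit. A set of 10 is too small to read that as a difference. Without GEM8, 2 of 10 passed, where 2560 of all genes did. By estimate alone, 7 of the 10 were higher and 3 lower in Tp-BCC, with a median log2 fold change of 0.29 beside -0.027 for all genes tested, though with TP1 and TP3 as the only Tp-BCC tumors the median of the 10 was -0.19, and under scaling by library size alone Sox9 changed sign.

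**Figure D1:**
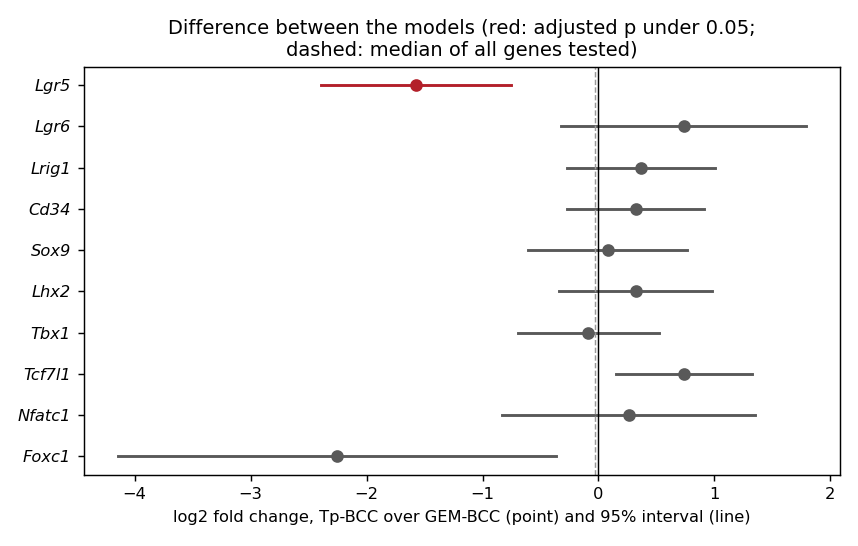
Log2 fold change of each gene, Tp-BCC (n = 4) over GEM-BCC (n = 9), on the horizontal axis, with its 95% interval as a line; red marks an adjusted p under 0.05 and the dashed line the median of all genes tested. The Lgr5 interval ends at -0.76, well below 0, those of Tcf7l1 and Foxc1 also leave out 0 without passing the adjusted threshold, and the other 7 cross 0.

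Among the surface proteins, Lgr5 is a receptor for R-spondins that heightens Wnt signaling, and it marks cells of the lower bulge and hair germ. Lgr5 read 179 CPM at its lowest, 248 at the median and 398 at its highest in the GEM-BCC tumors, and 135, 74.9, 137 and 23.2 CPM in TP1, TP2, TP3 and TP4. Every Tp-BCC tumor lay below every GEM-BCC tumor, with TP4 far below the other Tp-BCC tumors and TP1 and TP3 nearest to the GEM-BCC range. The means were 275 ± 72.0 CPM (SD, n = 9) in GEM-BCC and 92.5 ± 54.5 CPM (SD, n = 4) in Tp-BCC, a ratio of 2.97 of GEM-BCC over Tp-BCC. On the log2 scale Lgr5 fell by 1.57 (SE 0.38, 95% interval -2.39 to -0.76, adjusted p 0.0109), and it was lower in 4 of 4 Tp-BCC tumors. The counts behind these levels were 5811 to 12295 for GEM-BCC and 325 to 2294 for Tp-BCC, so depth did not limit this comparison. In bulk RNA, fewer Lgr5-expressing cells and less Lgr5 RNA per cell cannot be told apart.

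The size of the Lgr5 difference followed the side of the GC and length split on which the Tp-BCC tumors lay. With TP1 and TP3 as the only Tp-BCC tumors, the log2 fold change was -1.02 (adjusted p 0.0453), and with TP2 and TP4 it was -2.48 (adjusted p 8.52e-04). The other alternatives gave values between these, and its adjusted p over all 25 alternatives ran from 2.37e-04 to 0.252. Leaving out TP4, the lowest tumor, gave -1.28, and leaving out TP3 gave -1.82. Once the GC trend of each tumor was removed, Lgr5 stood at 6.98, 6.31, 7.01 and 5.16 log2 CPM in TP1 to TP4, so that TP4 remained lowest, and the fold change by limma was -1.63 (adjusted p 0.00111). The part of GC content in the spread of Lgr5 among the Tp-BCC tumors was not tested further.

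Over all 13 tumors, the genes whose log2 CPM was most like that of Lgr5, of 10347 genes averaging 3 log2 CPM or more, were Scamp1 (Pearson r 0.978), Sfmbt1 (0.977) and Cep97 (0.973). Over the 9 GEM-BCC tumors alone, their r with Lgr5 was 0.725, 0.826 and 0.751. Their log2 fold changes were -1.5 for Scamp1, -0.78 for Sfmbt1 and -1.47 for Cep97. Sfmbt1 did not pass (adjusted p 0.0530), nor did Cep97 without TP2 (adjusted p 0.0845). These 13 points share the split into models and the GC and length trends of the libraries.

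Lgr6, a receptor of the same family, marks cells of the isthmus above the bulge and scattered cells of the epidermis. It read 20.7 CPM at its lowest (GEM3), 91.6 at the median and 253 at its highest (GEM9) in GEM-BCC, and 145, 238, 134 and 199 CPM in TP1 to TP4. All Tp-BCC tumors lay above the GEM-BCC median and inside the GEM-BCC range, which spanned a ratio of 12.2 between its ends. Its log2 fold change was 0.74 (95% interval -0.32 to 1.79, adjusted p 0.309), and the difference of the means, 108 ± 77.0 (SD, n = 9) against 179 ± 48.6 CPM (SD, n = 4), did not exceed the GEM-BCC SD. Lgr6 and Lgr5 thus took opposite sides by estimate, and whether their differences differ was not tested.

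Lrig1 is a transmembrane protein that restrains receptors of the Egf family and marks the junctional zone. It read 634 CPM at its lowest (GEM3), 1405 at the median and 1797 at its highest (GEM2) in GEM-BCC, and 1131, 2298, 1266 and 1913 CPM in TP1 to TP4. TP2 and TP4 stood above every GEM-BCC tumor, and TP1 and TP3 below the GEM-BCC median. For Lrig1 the log2 fold change was 0.36 (95% interval -0.27 to 1.00, adjusted p 0.41), and with TP1 and TP3 as the only Tp-BCC tumors it was -0.10.

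Cd34, a sialomucin of the cell surface, marks bulge cells in the mouse, and it is also made by endothelium, fibroblasts and mast cells. It read 79.9 CPM at its lowest (GEM2), 161 at the median and 274 at its highest (GEM1) in GEM-BCC, and 224, 238, 203 and 181 CPM in TP1 to TP4. The Tp-BCC tumors lay close together, all above the GEM-BCC median and within the GEM-BCC range. Its log2 fold change was 0.32 (95% interval -0.27 to 0.91, adjusted p 0.433). Over the 25 alternatives it ran from 0.23 without GEM2 to 0.64 by limma with the GC trend removed (adjusted p 0.108). Of 15 endothelial markers, 8 passed as higher in Tp-BCC and 0 as lower (5 in all without TP4), and their summed level was 250 to 542 CPM in GEM-BCC (median 439) and 678, 936, 642 and 1031 CPM in TP1 to TP4, with Sox18 the most abundant. Of 13 fibroblast markers, 5 passed as higher and 2 as lower, with sums of 12273 to 49253 CPM over the GEM-BCC tumors (median 28718) and 15974, 23893, 16201 and 29015 CPM in TP1 to TP4, led by Col1a2. Of 8 mast cell markers 5 were tested and 0 passed by edgeR (1 by DESeq2, 1 by edgeR without GEM3, GEM5 or TP3, and 2 by limma with the GC trend removed), and their sum was 0.33 to 8.03 CPM over the GEM-BCC tumors (median 2.63) and 11.01, 7.91, 3.53 and 9.42 CPM in TP1 to TP4, led by Mcpt4, with Fcer1a at 0 counts in every Tp-BCC tumor. The part of these cell types in the Cd34 level was not tested.

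**Figure D2:**
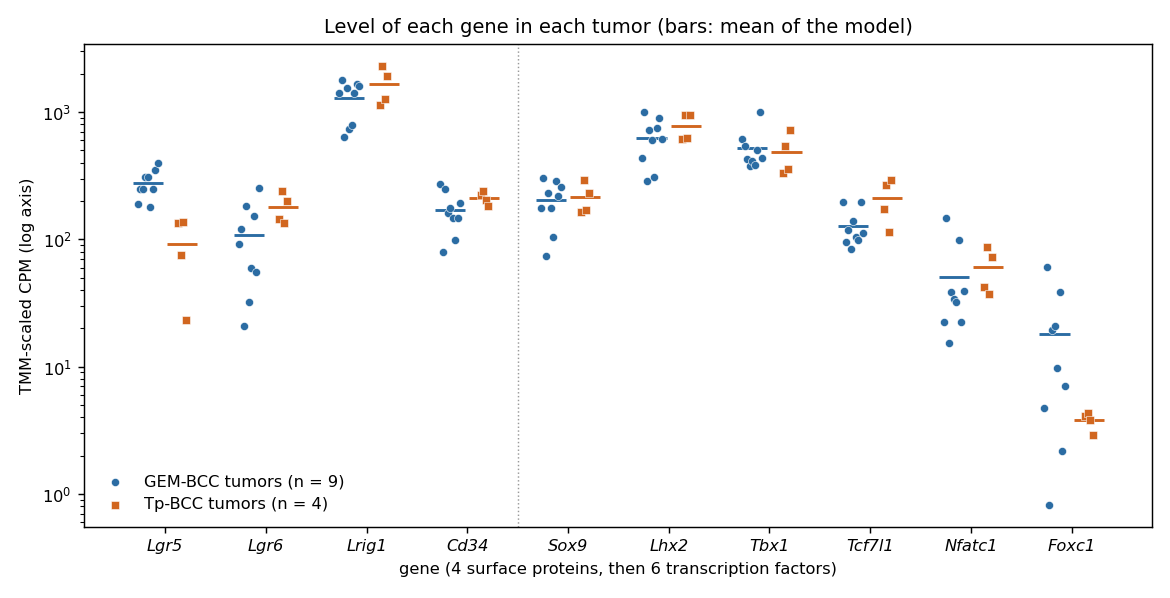
Level of each gene in each tumor, as TMM-scaled CPM on a log axis, with GEM-BCC tumors as circles, Tp-BCC tumors as squares and the mean of each model as a bar. Lgr5 is the gene whose models do not overlap, and Foxc1 the gene with the widest spread in GEM-BCC and a narrow cluster in Tp-BCC.

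Among the transcription factors, Sox9 carries an HMG box and is required to set up and keep the bulge pool and the outer root sheath. It read 74.2 CPM at its lowest (GEM3), 220.0 at the median and 303 at its highest (GEM2) in GEM-BCC, and 163, 293, 170.2 and 232 CPM in TP1 to TP4. The Tp-BCC tumors lay on either side of the GEM-BCC median and within its range. By limma with the GC trend removed, the Sox9 log2 fold change was 0.38 (adjusted p 0.433), and the log2 CPM means before removal were 7.54 in GEM-BCC and 7.70 in Tp-BCC. In the main fit it was 0.078 (95% interval -0.61 to 0.77, adjusted p 0.887). Its sign changed when GEM3, GEM6, TP2 or TP4 was left out, with a lowest value of -0.13 without TP2. A change inside that interval could not be told from none with these tumors.

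Lhx2, a LIM homeodomain factor of the bulge and hair germ that helps hold cells in the stem cell state, read 287 CPM at its lowest (GEM3), 614 at the median and 1001 at its highest (GEM2) in GEM-BCC. In TP1 to TP4 it read 612, 939, 622 and 943 CPM. TP2 and TP4 stood high and TP1 and TP3 near the GEM-BCC median, all within the GEM-BCC range. Between the models the log2 fold change was 0.32 (95% interval -0.34 to 0.98, adjusted p 0.487), and -0.016 with TP1 and TP3 alone.

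Tbx1, a T-box factor linked to the self-renewal of bulge cells, read 377 CPM at its lowest (GEM4), 433 at the median and 991 at its highest (GEM8) in GEM-BCC, and 329, 539, 358 and 728 CPM in TP1 to TP4. TP1 and TP3 lay below every GEM-BCC tumor while TP2 and TP4 lay inside the range, and GEM8 stood far above the other GEM-BCC tumors. Its log2 fold change was -0.089 (95% interval -0.70 to 0.52, adjusted p 0.853). It turned positive without GEM8 (0.085), without TP1 (0.063) or without TP3 (0.037), and when the tumors of a mouse were summed it was 0.0043.

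Tcf7l1, also called Tcf3, is an HMG box factor that represses Wnt target genes in the absence of β-catenin and keeps bulge and outer root sheath cells undifferentiated. It read 83.8 CPM at its lowest (GEM4), 111 at the median and 197 at its highest (GEM8) in GEM-BCC, and 174, 266, 115 and 292 CPM in TP1 to TP4. TP2 and TP4 stood above every GEM-BCC tumor, TP1 within the upper part of the range and TP3 just above the median. The means were 127 ± 42.1 CPM (SD, n = 9) and 212 ± 81.9 CPM (SD, n = 4). The log2 fold change was 0.74 (SE 0.28, 95% interval 0.15 to 1.33), with an adjusted p of 0.0722 that missed the threshold, and all 4 Tp-BCC tumors lay above the GEM-BCC median. Leaving out GEM1 (0.79, adjusted p 0.0466), GEM8 (0.84, adjusted p 0.0435) or TP3 (0.95, adjusted p 0.0272) brought it past the threshold. Over 25 alternatives the adjusted p of Tcf7l1 ran from 0.00703 with TP2 and TP4 alone to 0.727 with TP1 and TP3 alone. By limma with the GC trend removed its log2 fold change was 0.42 (adjusted p 0.113).

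Nfatc1, a calcineurin-dependent factor that is induced by Bmp signals and holds bulge cells in quiescence by repressing Cdk4, read 15.2 CPM at its lowest (GEM3), 34.2 at the median and 148 at its highest (GEM2) in GEM-BCC. In TP1 to TP4 it read 42.0, 87.8, 37.5 and 73.1 CPM. GEM2 and GEM7, the latter at 99.6 CPM, stood above all other tumors, and all Tp-BCC tumors lay above the GEM-BCC median. Its log2 fold change was 0.26 (95% interval -0.84 to 1.35, adjusted p 0.752), 0.66 without GEM2 and -0.0033 without TP2.

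Foxc1, a forkhead factor that works upstream of Nfatc1 and of Bmp signals to keep activated stem cells able to return to quiescence, read 0.82 CPM at its lowest (GEM3), 9.72 at the median and 60.6 at its highest (GEM2) in GEM-BCC. In TP1 to TP4 it read 4.12, 4.31, 3.83 and 2.93 CPM. The Tp-BCC tumors clustered tightly below the GEM-BCC median, but GEM3 and GEM8, at 0.82 and 2.17 CPM, lay lower still, so the models overlapped. The highest GEM-BCC tumor exceeded the lowest by a ratio of 73.7, against 1.47 among the Tp-BCC tumors. Foxc1 counts, 26 to 1668 over the GEM-BCC tumors and 41 to 70 over the Tp-BCC tumors, were the lowest of the 10 genes. The means were 18.2 ± 19.8 CPM (SD, n = 9) and 3.80 ± 0.61 CPM (SD, n = 4), a difference smaller than the GEM-BCC SD. Its log2 fold change was -2.26 (SE 0.89, 95% interval -4.14 to -0.37), and with an adjusted p of 0.0855 it missed the threshold. Foxc1 passed by DESeq2's Wald test (-2.27, adjusted p 0.0109), with the tumors of a mouse summed (-2.04, adjusted p 0.00956) and without GEM3 (-2.45, adjusted p 0.0367). It did not pass in the other 22 alternatives. Among them, the change was smallest with a replicate block, at -1.26 (adjusted p 0.647), and it was -1.76 without GEM2 (adjusted p 0.137). By limma with the GC trend removed the change was -1.55 (adjusted p 0.204), and the log2 CPM means before removal were 3.25 in GEM-BCC and 1.94 in Tp-BCC.

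Compared per kilobase of the longest annotated transcript, Lrig1 had the highest mean level in GEM-BCC at 259 CPM per kilobase, followed by Lhx2 at 219.8 and Tbx1 at 207, and these 3 did not differ beyond the larger SD of neighbors. A gap beyond that SD separated Tbx1 from Cd34 at 66.4 CPM per kilobase, after which Lgr5 (58.4), Sox9 (49.1) and Tcf7l1 (41.7) followed within their spread. A further such gap led to Lgr6 (16.1), and Nfatc1 (10.5) and Foxc1 (3.11) did not differ from their neighbors beyond the SD. In Tp-BCC the order of mean levels per kilobase was Lrig1 (334), Lhx2 (274), Tbx1 (195), Cd34 (82.9), Tcf7l1 (69.6), Sox9 (51.9), Lgr6 (26.8), Lgr5 (19.6), Nfatc1 (12.5) and Foxc1 (0.65). There, gaps beyond the larger SD lay between Lhx2 and Tbx1, Tbx1 and Cd34, Sox9 and Lgr6, and Nfatc1 and Foxc1. By these means Lgr5 stood at place 5 of 10 in GEM-BCC and at place 8 in Tp-BCC, though tumor by tumor it held places 4 to 7 in GEM-BCC, place 7 in TP1 and TP3 and place 9 in TP2 and TP4.

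Spread among tumors was described by the SD of log2 CPM. This SD had a median of 0.61 over the 10 genes and 0.44 over all genes tested in GEM-BCC, whereas in Tp-BCC it was 0.44 for the 10 and 0.58 for all genes. Foxc1 (SD 1.96), Lgr6 (1.19) and Nfatc1 (1.04) ranked at percentiles 98.8, 93.3 and 90.9 of the GEM-BCC SDs of all genes tested. Lgr5 was the steadiest of the 10 in GEM-BCC, with an SD of 0.38 at percentile 39.9, and the most variable in Tp-BCC, with an SD of 1.20.

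The tumors of mouse 2, GEM2 and GEM3, were the highest and the lowest of all GEM-BCC tumors in 5 genes, Lrig1, Sox9, Lhx2, Nfatc1 and Foxc1. Between GEM2 and GEM3, 7 of the 10 genes differed by more than 1 on the log2 scale, as did 21.8% of all genes tested. GEM2 exceeded GEM3 by 6.08 in Foxc1, 3.27 in Nfatc1, 2.54 in Lgr6, 2.03 in Sox9, 1.80 in Lhx2 and 1.5 in Lrig1 on the log2 scale, while the Cd34 difference was -1.64. Lgr5 was equal in this pair, at a difference of 0.0028. Between GEM7 and GEM8, 4 of the 10 genes differed by more than 1, against 14.8% of all genes: Foxc1 (4.10), Nfatc1 (2.15) and Lgr6 (1.45) were higher in GEM7, and Tcf7l1 (-1.0) was higher in GEM8. In both mice, then, the tumor with more Foxc1 also had more Nfatc1 and more Lgr6 and less Cd34, the GEM7 to GEM8 difference of Cd34 being -0.58. Over the 9 tumors, GEM2 was highest in 5 of the 10 genes, GEM3 lowest in 6, and GEM6 below the median in 9.

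**Figure D3:**
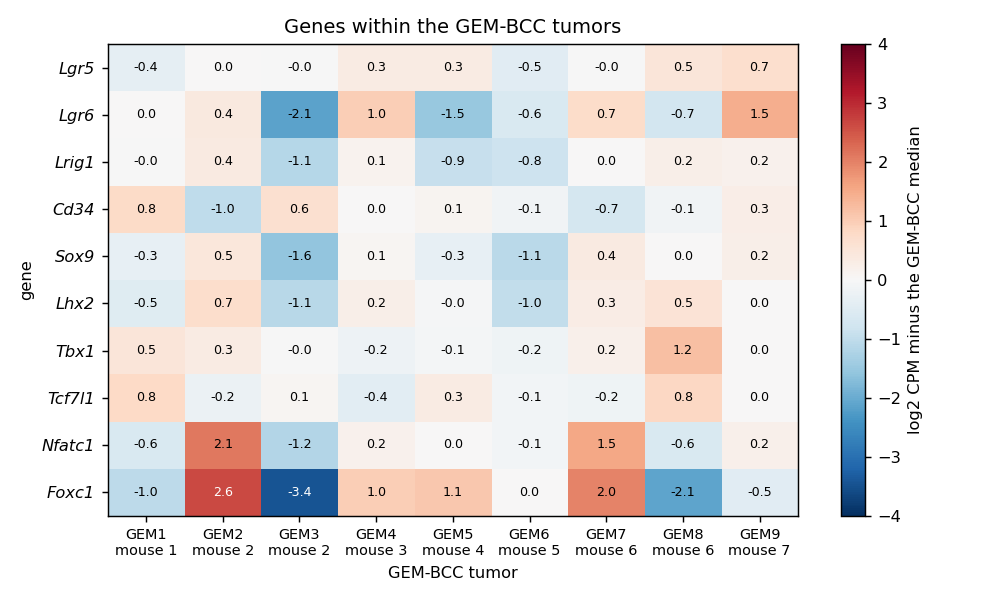
Log2 CPM of each gene in each GEM-BCC tumor minus the gene's GEM-BCC median, as color and number, with tumors in columns and the mouse of each given beneath. GEM2 and GEM3, from mouse 2, are opposite in most genes, while Lgr5 is near 0 in both and in GEM7.

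The 45 pairs among the 10 genes were compared over the 9 GEM-BCC tumors by Pearson's r and Spearman's rho of log2 CPM, as a description, and those given were picked out after the values were seen. Sox9 and Lhx2 had an r of 0.919 (rho 0.883), and 0.716 without GEM3 and GEM6, the tumors farthest from the Sox9 median. Lrig1 and Sox9 had an r of 0.867 (rho 0.8), and 0.901 without GEM3 and GEM5. Over means of the 7 mice, these r values were 0.888 and 0.783. Lrig1 and Lhx2 had an r of 0.794 (rho 0.883), 0.874 without GEM3 and GEM5 and 0.567 over mouse means. Other pairs rested more on the farthest tumors. Lgr6 and Lrig1 had an r of 0.809 (rho 0.6), but 0.458 without GEM3 and GEM5. For Tbx1 and Tcf7l1 it was 0.721 (rho 0.517), but -0.126 without GEM8 and GEM1. Nfatc1 and Foxc1 had an r of 0.897 (rho 0.883), and 0.900 without GEM2 and GEM7, which leaves 1 tumor from each of 7 mice, but 0.268 over the 7 mouse means. Cd34 ran opposite to Nfatc1, with an r of -0.886 (rho -0.6), -0.813 without GEM2 and GEM1 and -0.837 over mouse means. The highest r of Lgr5 with another of the 10 genes over the 9 tumors was 0.545, with Lhx2, and over the 7 mouse means its r was 0.793 with Lhx2 and 0.814 with Sox9. The tumors share depth and, apart from GEM1, the sign of their GC trend, but not their length trend, and GEM3 and GEM6, the tumors with the most negative length trends in GEM-BCC, were also the lowest in Sox9 and Lhx2. Whether these relations would hold with the length trend removed was not tested.

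The levels of several of the 10 genes moved with marker sums of other cell types among the GEM-BCC tumors, and the lists named here were picked out after the values were seen from 15 sums set beside each gene (150 relations in all). The sum of 10 pericyte and smooth muscle markers ran from 977 CPM in GEM2 through a median of 1420.0 to 1792 in GEM3, and was 1051, 1749, 1064 and 1945 CPM in TP1 to TP4. Cspg4 was the most abundant of them by its mean over the 13 tumors, and all 10 had more than 3 counts in every tumor. Over the 9 GEM-BCC tumors the r of this sum was -0.898 with Sox9 (rho -1), -0.894 with Nfatc1 (rho -0.883), -0.803 with Lhx2 (rho -0.883), -0.769 with Lgr6 (rho -0.717), -0.758 with Lrig1 (rho -0.8), -0.74 with Foxc1 (rho -0.7) and 0.744 with Cd34 (rho 0.6). With Tcf7l1 (0.434), Lgr5 (-0.348) and Tbx1 (-0.0872) it was smaller in size. The sum of skeletal muscle markers, at 2.80 to 9.87 CPM a low one in GEM-BCC and not independent of the former because both lists hold Des (mean 1.86 CPM in GEM-BCC, where that sum averaged 5.27), had r values as large, at -0.914 with Lgr6 (rho -0.833), -0.906 with Sox9 (rho -0.85) and -0.857 with Lrig1 (rho -0.717). With the endothelial sum, r was -0.712 for Nfatc1, -0.627 for Lgr6 (rho -0.733), -0.622 for Foxc1, 0.651 for Cd34 and 0.678 for Tcf7l1. Relations of that size were spread over further lists, with r of -0.862 for Foxc1, -0.785 for Nfatc1 and -0.701 for Lgr6 with lymphatic endothelium, -0.785 for Lhx2 and -0.707 for Lrig1 with macrophages, and -0.768 for Lrig1 and -0.712 for Lgr6 with mast cells. With the melanocyte sum, led by Mitf, r was positive for Sox9 (0.687), Lhx2 (0.672) and Foxc1 (0.666). With the sebocyte sum it was -0.716 for Nfatc1 and 0.627 for Cd34. Between the models, 2 of the 10 pericyte and smooth muscle markers, Pdgfrb and Des, passed as higher in Tp-BCC and 0 as lower. Of the skeletal muscle list of 13, 5 were tested and Des alone passed (2 passed without TP1 and 3 without TP3), and the 10 of that list with values summed to 7.71, 22.1, 7.96 and 162 CPM in TP1 to TP4. Acta1, the most abundant of these by its mean over the 13 tumors, had 79.5 CPM in TP4 and 5.40 CPM or less in the others. The part of these cells in the variation of the 10 genes was not tested.

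Among the Tp-BCC tumors, TP2 and TP4 both exceeded TP1 and TP3 in 7 of the 10 genes, namely Lgr6, Lrig1, Sox9, Lhx2, Tbx1, Tcf7l1 and Nfatc1, and both lay below them in Lgr5. Of all genes tested, 43.6% had TP2 and TP4 above and 35.9% below, the same split as the signs of the GC trend and of the length trend, which cannot be told apart in 4 tumors. With the GC trend removed, the SD over the 4 Tp-BCC tumors was smaller for 7 of the 10 genes and for 75.3% of 14148 genes. The Tbx1 SD went from 0.53 to 0.07, with log2 CPM of 8.72, 8.66, 8.82 and 8.69 in TP1 to TP4, and the Lgr6 SD from 0.39 to 0.12. Sox9 went the other way, from 0.40 to 0.67, with 7.23, 8.31, 7.31 and 8.53 in TP1 to TP4, and so did Cd34 (0.17 to 0.31) and Foxc1 (0.24 to 0.59). The Lgr5 SD fell from 1.20 to 0.86 with the removal and was still the largest of the 10 genes in Tp-BCC. The fit with the trend removed used limma in place of edgeR, so its fold changes differ from the main ones in method as well as trend. Among genes that passed in neither fit, they were 0.19 against 0.36 for Lrig1, 0.12 against 0.32 for Lhx2 and -0.29 against -0.089 for Tbx1.

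**Figure D4:**
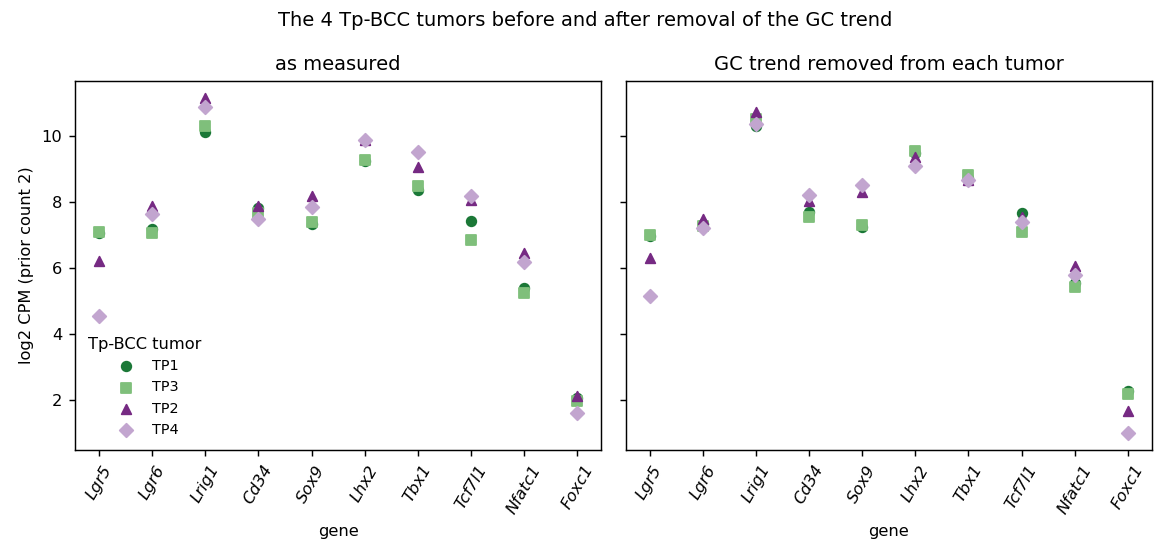
Log2 CPM (prior count 2) of each gene in the 4 Tp-BCC tumors, as measured on the left and with each tumor's GC trend removed on the right, with a color and shape for each tumor. Tbx1, Lgr6 and Lhx2 draw together on the right, while Lgr5 and Sox9 stay spread.

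Most genes around Lgr5 and Lgr6 in R-spondin signaling did not pass in the main fit, and those that did went in both directions. Of 19 genes on the list, 17 were tested, 2 passed as higher and 3 as lower in Tp-BCC (8 in all without GEM2, 3 without TP4), with a median log2 fold change of -0.74 beside -0.027 for all genes. The count depended on the fit. In all, 10 passed by DESeq2, where 3743 of all genes did, and 10 with TP2 and TP4 only, where 6119 did. With TP1 and TP3 only it was 3, where 1484 of all genes passed. Of all genes tested, 11.1% passed as higher and 8.35% as lower, shares that stand beside the counts of every list here. Lgr4, the third receptor of the Lgr5 and Lgr6 family, was lower, at -1.74 (adjusted p 0.0276), though not past the threshold without TP2 (adjusted p 0.0892) or TP4 (0.0629). So were the ligand Rspo1 (-2.86, adjusted p 0.00173) and Rnf43 (-1.97, adjusted p 0.00600), a ubiquitin ligase that the R-spondins counter. The ligand Rspo4, at 4.11 (adjusted p 4.29e-04), and the Wnt receptor Fzd2, at 1.04 (adjusted p 0.0104, or 0.0532 without TP4), were higher. Rspo2 and Rspo3 had too few counts to be tested.

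Wnt target genes, a class that Tcf7l1 represses and Lgr5 signaling favors, passed as higher in 5 of 12 tested (of 14 listed) and as lower in 1, with a median log2 fold change of 0.75. Apcdd1 (2.3), Nkd1 (2.48), Tcf7 (2.57) and Ccnd1 (0.86, with an adjusted p of 0.0528 without TP2) were among those higher, and the secreted Wnt inhibitor Wif1 (-1.69, adjusted p 9.53e-04) was the gene that was lower. Lef1, at 2.99 (adjusted p 1.01e-05), was the other higher gene. Tcf7 and Lef1 belong to the same family as Tcf7l1, and they count again among relatives of the 10 genes, of which 12 of 32 tested (39 listed) passed as higher and 3 as lower (9 in all without TP2), with a median of 0.26. Others of these were Nfatc4 (0.91, adjusted p 0.00699), a higher relative of Nfatc1, and Foxp1 (-1.30, adjusted p 0.00475), a lower relative of Foxc1.

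Of 13 Egf family ligands and receptors, on which Lrig1 acts, 10 were tested, and Epgn (2.59, adjusted p 0.0273) passed as higher and Tgfa (-2.37, adjusted p 0.00384) as lower, with Epgn past the threshold no longer without TP1 (adjusted p 0.0555), TP3 (0.0617) or TP4 (0.0720), and a list median of -0.42. These counts lie near the shares of all genes, 11.1% higher and 8.35% lower. Of 21 genes of the Bmp, Id and calcineurin pathway around Nfatc1, all tested, 2 passed as higher and 4 as lower, with a median of -0.22. Of all genes, 19.4% passed in either direction. Cdk4, which Nfatc1 represses in bulge cells, was higher at 1.08 (adjusted p 0.00248), as was Bmp4 at 3.04 (adjusted p 1.39e-05). Among the lower were Smad5 (-1.11, with an adjusted p of 0.0746 without TP2), Id2 (-1.22, adjusted p 0.0139) and the receptor Bmpr1b (-6.25, at 0 to 4 counts in Tp-BCC).

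Other genes of the bulge and hair germ had 2 of 20 tested (22 listed) higher and 8 lower, with a median log2 fold change of -0.94. Krt15, a bulge keratin, had 761.9 ± 482 CPM (SD, n = 9) in GEM-BCC and 46.6 ± 21.7 CPM (SD, n = 4) in Tp-BCC, a log2 fold change of -4.03 (adjusted p 2.08e-04) with no overlap. Tnc (-5.06) and Wif1 (-1.69) were also lower, and Col17a1 (2.00, adjusted p 0.0120), a collagen that anchors bulge cells, and Gas1 (1.08, adjusted p 0.0144, or 0.0763 without TP2) were higher. Krt15 and Lgr5 were thus lower in Tp-BCC, while the other 9 of the 10 genes did not pass. The 95% intervals of Lrig1, Sox9, Lhx2, Cd34 and Tbx1 ended at 1.00 or less above 0 and at -0.70 or more below it, but those of Lgr6 (-0.32 to 1.79), Nfatc1 (-0.84 to 1.35), Tcf7l1 (0.15 to 1.33) and Foxc1 (-4.14 to -0.37) reached farther. These intervals take all tumors as independent and do not cover batch. Estimates also moved with the Tp-BCC pair used, for Lrig1 from -0.10 (TP1 and TP3) to 0.72 (TP2 and TP4). Larger differences were thus not excluded in any of the 9.

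**Figure D5:**
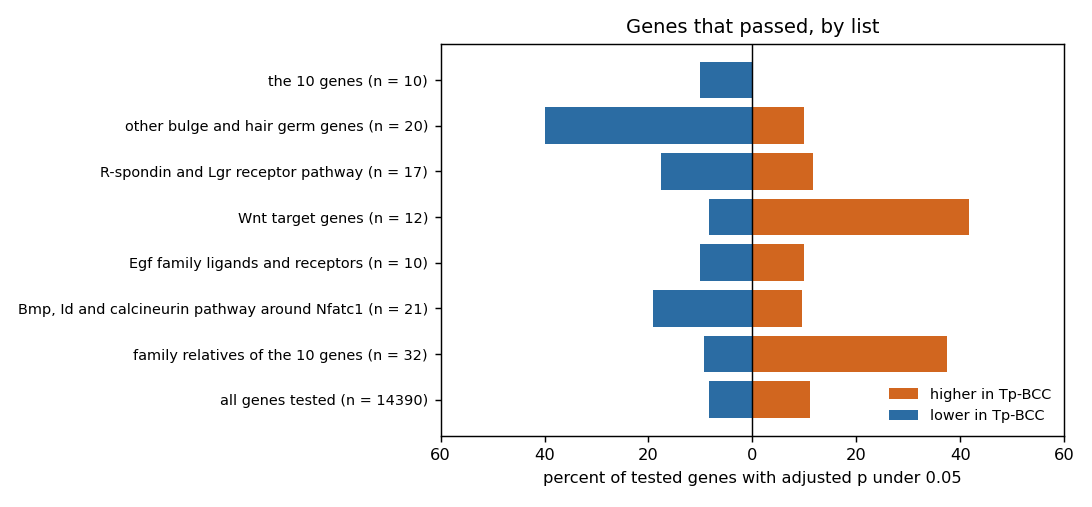
Percent of the tested genes of each list with an adjusted p under 0.05 in edgeR's test, higher in Tp-BCC to the right and lower to the left, with the number tested in brackets. The 10 genes show 1 of 10, lower, while 8 of 20 other bulge and hair germ genes were lower and 5 of 12 Wnt target genes higher.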

How the data were processed

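The deposited values are RSEM expected counts, which the authors made by aligning reads with Bowtie2 2.3.4.3 to GRCm39 and quantifying with RSEM 1.3.1, neither rounded nor normalized. How missing values arose is not stated; genes lacking any were left out. Rounded counts of genes reaching 10 counts in 4 or more tumors went into edgeR 4.0.16 under R 4.3.3 (TMM, robust quasi-likelihood F test, no covariate), with Benjamini-Hochberg adjustment over all 14390. SE is the log2 fold change over the square root of F. Alternatives used DESeq2 1.42.0, limma 3.58.1, other scaling, filters, sums per mouse, tumors left out, removal of the GC trend (lowess, span 0.3, GENCODE vM21) and a replicate block. Values with the GC trend removed were tested by limma, so that alternative differs from the main fit in method as well as trend. Procedures were tested on simulated data. Of 96 genes set there to an absolute log2 fold change of 1 between the models, 12 passed (12.5%). Of 99 genes set to 2, 69 passed (69.7%), and of 14055 genes set to 0, 5 passed. The 10 genes and the lists were chosen with earlier results of these data known. Genes named come from up to 4 a list in each direction that passed, by mean log2 CPM, and the 3 genes most like each of the 10 that passed. Not all of these are given, Nfib and Ppp3r1 among those left out, and Lef1 was taken from the hair matrix list. Gli1, Ptch1, Rspo2 and Rspo3 were named after their values were seen.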

Additional observations from a re-analysis of the deposited data

Results flagged for a closer look

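In 20 groups of values, the 10 genes in each of the 2 models, the gap between the most extreme tumor and its nearest neighbor was set against the whole range of the group. It was large in 1 of the 20, about what chance gives. Tbx1 in GEM-BCC had a gap of 0.5 of its range: GEM8 read 9.95 log2 CPM and the next tumor, GEM1, 9.26. What lies behind the Tbx1 level of GEM8 was not tested.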

How the results depend on the processing

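The fold changes of the 10 genes and the counts of genes that passed were computed under 25 alternatives. Lgr5 kept its direction in all 25 and passed in 24, with log2 fold changes from -2.48 to -1.02. With tumor number as a replicate block it was -1.64 (adjusted p 0.252), 0 of the 10 genes passed (Lgr5 had an unadjusted p of 0.0193) and 178 of all genes did; the numbers do not pair tumors, since tumors of equal number were no more alike than others (r over genes of -0.381, -0.122, -0.101 and -0.179 for the paired numbers 1 to 4). The count of the 10 genes that passed was 2 by DESeq2's Wald test (Foxc1), with counts summed per mouse (Foxc1) and with TP2 and TP4 only (Tcf7l1). Leaving out each tumor gave 1 to 2, with 2 without GEM1, GEM3, GEM8 or TP3. The count of all genes that passed was 1484 with TP1 and TP3 only, 6119 with TP2 and TP4 only, and 1545 (without TP2) to 3020 (without GEM3) leaving out each tumor, with 1836 without TP4. Log2 fold changes that changed sign were all of genes that did not pass. With TP1 and TP3 only they were -0.10 for Lrig1, -0.016 for Lhx2, -0.34 for Nfatc1 and -0.29 for Sox9, and with TP2 and TP4 only 0.29 for Tbx1. Scaling by library size alone gave -0.023 for Sox9, and summing per mouse gave 0.0043 for Tbx1. Leaving out each tumor gave -0.13 to 0.19 for Sox9, -0.39 to 0.085 for Tbx1 and -0.0033 to 0.66 for Nfatc1. The cause of these shifts was not tested, though the pairs of Tp-BCC tumors leave fewer tumors in the fit. Foxc1 had the lowest counts of the 10 genes, at 26 in GEM3, the tumor with the largest library total (32629102).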

Other observations

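Genes of other compartments of the follicle and epidermis were read in the same fit, where 11.1% of all genes passed as higher and 8.35% as lower. Of 14 upper follicle and sebaceous duct genes, 13 were tested, with 1 passing as higher and 4 as lower and a median log2 fold change of -0.74. Krt79, a keratin of the upper follicle, was lower at -6.05 (adjusted p 0.00138), with 99 to 230 counts in Tp-BCC. Of 30 hair matrix and hair shaft genes 18 were tested, with 1 higher and 8 lower. Their median was -1.77, or -1.37 with the 5 genes at 3 counts or fewer in all Tp-BCC tumors set to the bound that 3 counts per library allow. Cux1 was lower at -2.53 (adjusted p 1.94e-04), and the keratin gene Krt75 had 141 to 9591 counts over the GEM-BCC tumors and 0 to 3 over the Tp-BCC tumors. Of 14 interfollicular basal genes 0 passed as higher and 2 as lower (1 in all without TP1, TP2 or TP4), with a median of -0.35. Of 18 interfollicular suprabasal genes 14 were tested, with 1 higher and 6 lower and a median of -2.70 with or without such bounds. Krt10 was lower at -2.80 (adjusted p 0.0104) and Klf4 higher at 1.57 (adjusted p 5.72e-05). Of 9 dermal papilla markers tested, 4 passed as higher and 0 as lower (1 in all without TP2 or TP4), with summed levels of 159 to 409 CPM in GEM-BCC and 515, 597, 436 and 763 CPM in TP1 to TP4. Sox18, among those 4 and the most abundant of the list with 468 CPM in TP4, is also on the endothelial list.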
